A study of Mus musculus with 80 samples.

Results

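A set of 10 genes of the mouse X chromosome was followed across lines in which RNA-processing factors were depleted. They were chosen by the size of the change in their allelic ratio when dTAG-13 was added to Xist-expressing cells of a METTL3, ZCCHC8 or YTHDC1 line. The 10 genes are Mamld1, Gprasp2, Nr0b1, Dgkk, Slc35a2, Wdr45, Zfp449, BC023829, Il1rapl1 and Foxo4, out of 453 genes other than Xist with an allelic ratio in any line and 908 X-linked genes with an expression value. Of the 10 members, 8 had a ratio in every line with ratios. Gprasp2 was not listed in the ZCCHC8 and YTHDC1 ratio tables, and Foxo4 was not listed in the METTL3 ratio table.

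All lines were mouse embryonic stem cells from a Mus castaneus (Cast) by 129S cross, cultured on mitomycin-inactivated fibroblast feeders, in which doxycycline (Dox, 1.0 µg/mL for 24 h) switched on Xist from one X. Chromatin-associated RNA (ChrRNA) was sequenced in 80 libraries. The METTL3 line had 4 clones with the FKBP12-F36V degron on METTL3, G4 and H1 at the N terminus and C3 and H5 at the C terminus. The ZCCHC8 (Z4F, Z12H), YTHDC1 (Y9F, Y12H, in 2 experiments) and ZFC3H1 (8H, 11A) lines had 2 clones each. Both METTL3 transgene types, GFP-METTL3 (WT) and GFP-METTL3-D395A (D395A, a catalytic mutant), were driven constitutively from Rosa26 in clone H5, and the cells either kept both X chromosomes (XX) or only the X with inducible Xist (XiO). Each transgene line was 1 clone in 2 experiments, so its replicates are not separate clones. Xist was induced on the Cast X in the METTL3, ZFC3H1 and transgene lines and on the 129S X in the ZCCHC8 and YTHDC1 lines, whose inducible Xist also carried Bgl stem loops. Each clone was left untreated, given dTAG-13 alone, given Dox alone, or given dTAG-13 for 2 h and then dTAG-13 with Dox for 24 h (dTAG+Dox). For dTAG-13 alone, the titles of the libraries read 26 h, whereas their treatment field reads 2 h.

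Xist RNA coats the X that makes it and recruits SPEN and Polycomb complexes that silence its genes. METTL3 is the catalytic subunit of the enzyme that writes m6A on RNA, YTHDC1 binds m6A in the nucleus, and ZCCHC8 and ZFC3H1 belong to the NEXT and PAXT complexes that hand nuclear RNA to the exosome. The allelic ratio is the share of allele-informative reads that came from the X with inducible Xist (Xi), as Xi/(Xi+Xa), so a lower ratio after Dox means fewer RNAs from the silenced X relative to the other X (Xa).

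The members lie at scattered places on the X (mm10 coordinates from the deposited tables). Mamld1 (chrX:71050256-71154717) encodes a transcriptional coactivator, Nr0b1 (chrX:86191775-86195944) the nuclear receptor DAX1 of the stem-cell network, Foxo4 (chrX:101254528-101260873) a forkhead factor and Zfp449 (chrX:56346400-56365674) a zinc-finger protein. Gprasp2 (chrX:135839034-135844730) encodes a sorting protein for G-protein-coupled receptors, Dgkk (chrX:6873484-6948363) a diacylglycerol kinase, Slc35a2 (chrX:7884244-7894492) the Golgi UDP-galactose transporter and Wdr45 (chrX:7722220-7728201) an autophagy protein. Il1rapl1 (chrX:86747242-88115623) encodes a synaptic adhesion protein and spans the longest interval of the set. BC023829 (chrX:70460056-70477043) is a gene for which no role is given here.

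Promoters of 7 of the 10 members matched the RefSeq table (GRCm38.p6) by symbol. The 3 printed here cover the member with the largest change in the METTL3 line (Mamld1), the member called for dTAG+Dox against Dox in both XX transgene lines (Nr0b1) and the member whose level changed most (Il1rapl1). Each is the 250 bases before the annotated start, 5′ to 3′ on the gene's strand, with capitals for matches on either strand to TATAAA, a core promoter motif bound by TBP, or to GGGCGG, a motif bound by Sp1.
Mamld1 (chrX:71050006-71050255, plus strand): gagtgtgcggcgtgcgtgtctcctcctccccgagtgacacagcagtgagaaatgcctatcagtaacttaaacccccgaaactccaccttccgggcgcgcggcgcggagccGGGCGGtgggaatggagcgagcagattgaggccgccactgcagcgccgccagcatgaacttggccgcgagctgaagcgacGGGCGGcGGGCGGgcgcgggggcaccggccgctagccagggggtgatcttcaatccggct
Nr0b1 (chrX:86191525-86191774, plus strand): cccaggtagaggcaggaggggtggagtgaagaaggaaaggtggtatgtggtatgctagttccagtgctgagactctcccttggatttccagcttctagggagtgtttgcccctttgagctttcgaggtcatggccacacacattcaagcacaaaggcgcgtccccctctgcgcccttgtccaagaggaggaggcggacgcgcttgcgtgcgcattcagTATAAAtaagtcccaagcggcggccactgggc
Il1rapl1 (chrX:88115949-88116198, minus strand): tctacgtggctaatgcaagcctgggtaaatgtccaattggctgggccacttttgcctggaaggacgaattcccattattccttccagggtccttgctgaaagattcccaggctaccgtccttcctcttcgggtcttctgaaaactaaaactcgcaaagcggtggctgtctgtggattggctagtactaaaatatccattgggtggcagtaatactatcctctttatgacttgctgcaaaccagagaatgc
Over the full 300-base windows, Mamld1 held 36 CG dinucleotides and 70.3% G + C, with 4 matches to the Sp1 motif. Nr0b1 held 14 CG dinucleotides with 1 match to the TBP motif. Il1rapl1 held 7 CG dinucleotides and 45% G + C, with no match to any motif searched. Among 32851 RefSeq promoters, the median was 7 CG dinucleotides and 52.7% G + C, 35.7% held the Sp1 motif and 13.6% the TBP motif. The E box CACGTG (7.15% of all promoters), the YY1 motif GCCATNTT (6.05%) and the NRF1 motif (4.6%) were also searched on both strands and matched none of the 7 member promoters. The deposited gene start of Il1rapl1 lies outside its RefSeq window, and those of Mamld1 and Nr0b1 lie inside.

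Depth ran from 8.58 to 34.4 M reads per library. The summed level of 7 embryonic stem cell markers was 782 to 2224 CPM, the read count scaled to the library's total, against 1.73 to 18.6 for 8 feeder markers and 7.18 to 97.3 for 8 markers of differentiated cells. The WT XiO line stood apart, with stem cell markers at 782 to 1027 CPM, feeder markers at 10.4 to 18.6 CPM and differentiated markers at 37.5 to 97.3 CPM. In bulk libraries, fewer cells of a type and less RNA per cell cannot be told apart. Xist was at 1670 CPM or more in every library given Dox alone. The RNA of the gene that carries the degron did not pass with dTAG-13 alone in any line, which does not check depletion, since the degron acts on protein.

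In the untreated cells, before Xist was induced, the members already differed in how their RNA was split between the strains. The Cast share of Il1rapl1 had a median of 0.0575 over 16 untreated libraries, the third lowest of 453 genes, against a median of 0.476 over all genes. Dgkk (0.313) and Wdr45 (0.414) also leaned to 129S, less so where the 129S X carried inducible Xist. Their medians were 0.4265 and 0.474 in those libraries, and 0.268 and 0.378 where the Cast X carried it. Mamld1 (0.662), Nr0b1 (0.617) and Foxo4 (0.598) leaned to Cast. The Cast share of Mamld1 lay above the 95th percentile of all genes, 0.651, and that of Dgkk below the 5th, 0.318. The tables were normalized separately, so shares and levels set side by side between lines are descriptions.

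**Figure D1:**
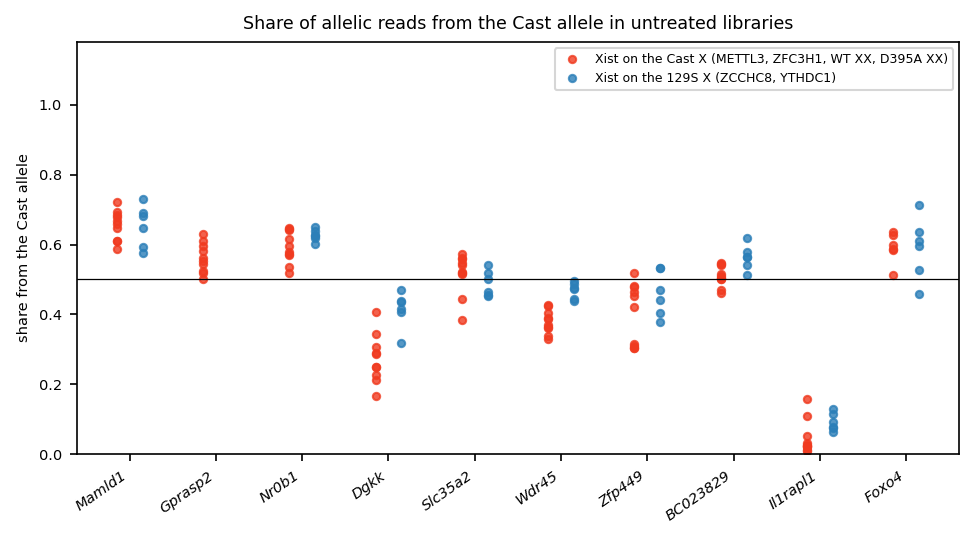
Share of informative reads from the Cast allele (y axis, 0 to 1) for each member (x axis) in the untreated libraries, 1 point per library, coloured by the X that carries inducible Xist, with a line at equal shares. Il1rapl1 lies near 0, with a median of 0.0575, while Mamld1, Nr0b1 and Foxo4 have medians of 0.662, 0.617 and 0.598.

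The values that chose the members are given first, as descriptions without a test. The ratio of Mamld1 in the METTL3 line went from 0.565 to 0.213 in clone G4, from 0.429 to 0.188 in clone H1, from 0.25 to 0.2 in clone C3 and from 0.515 to 0.111 in clone H5 when dTAG-13 accompanied Dox. All 4 clones were lower and the groups did not overlap, with a mean change of -0.262 ± 0.157 (SD, n = 4), the largest of all genes in that table. Its 7 neighbours within 1 Mb had a median change of -0.0643. Gprasp2 went from 0.383 to 0.151 in clone G4, from 0.345 to 0.204 in clone H1, from 0.306 to 0.17 in clone C3 and from 0.463 to 0.25 in clone H5. Nr0b1 went from 0.33 to 0.128 in clone G4, from 0.36 to 0.172 in clone H1, from 0.212 to 0.122 in clone C3 and from 0.355 to 0.113 in clone H5. Groups without overlap are favoured by the choice on this change, for Mamld1 too. Neither the groups of Gprasp2 nor those of Nr0b1 overlapped, and their mean changes ranked 4 and 5. Between them and Mamld1 ranked Zcchc16 (-0.224) and Prickle3, which are no members, and the first gene below them was Gpm6b at -0.169. Over all genes of the table the median change was -0.064, and 96.5% of genes were lower.

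In the ZCCHC8 line, Slc35a2 went from 0.312 to 0.06 in clone Z4F and from 0.311 to 0.125 in clone Z12H, ranking first of 262 genes. Wdr45 went from 0.307 to 0.0965 in clone Z4F and from 0.338 to 0.134 in clone Z12H. Zfp449 went from 0.435 to 0.206 in clone Z4F and from 0.36 to 0.182 in clone Z12H. Both clones of each gene were lower with dTAG+Dox, and the groups did not overlap, which the choice on this change favours. The ranks of Wdr45 and Zfp449 were 3 and 4, with Prickle3 just outside at -0.198. The median over all genes was -0.0668, and 88.2% of genes were lower. Slc35a2 and Wdr45 start close together on the X, and their 25 neighbours had a median change of -0.133. Zfp449 had 8 neighbours with a median of -0.059.

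In YTHDC1 experiment 1 the change ran the other way. BC023829 went from 0.125 to 0.266 in clone Y9F and from 0.13 to 0.321 in clone Y12H. Il1rapl1 went from 0.804 to 0.97 in clone Y9F and from 0.846 to 0.969 in clone Y12H. Foxo4 went from 0.0345 to 0.138 in clone Y9F and from 0.121 to 0.292 in clone Y12H. These 3 members were higher in both clones, with no overlap between the groups. Dgkk went from 0 to 0.391 in clone Y9F and from 0.407 to 0.4 in clone Y12H, so its mean change of 0.192 came from clone Y9F alone. Across 262 genes the median change was 0.045, and 6.87% of genes were lower. Cybb was highest at 0.401, and the first gene below the members was Ftsj1 at 0.136. The choice on the size of this change favours groups without overlap. The share of all genes without overlap was not counted for the METTL3, ZCCHC8 or YTHDC1 lines.

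The same clones in YTHDC1 experiment 2 gave smaller changes for those 4 genes, again as values only. BC023829 went from 0.22 to 0.231 in clone Y9F and from 0.212 to 0.255 in clone Y12H. Il1rapl1 went from 0.89 to 0.98 in clone Y9F and from 0.822 to 0.981 in clone Y12H. Both genes were higher in both clones. Dgkk went from 0.2 to 0.316 in clone Y9F and from 0.455 to 0.346 in clone Y12H, up in one clone and down in the other. Foxo4 went from 0.167 to 0.143 in clone Y9F and from 0.25 to 0.232 in clone Y12H, slightly lower in both. No member was among the 12 largest changes of that experiment. The median of all 278 genes was 0.0374, and 12.2% of them were lower.

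**Figure D2:**
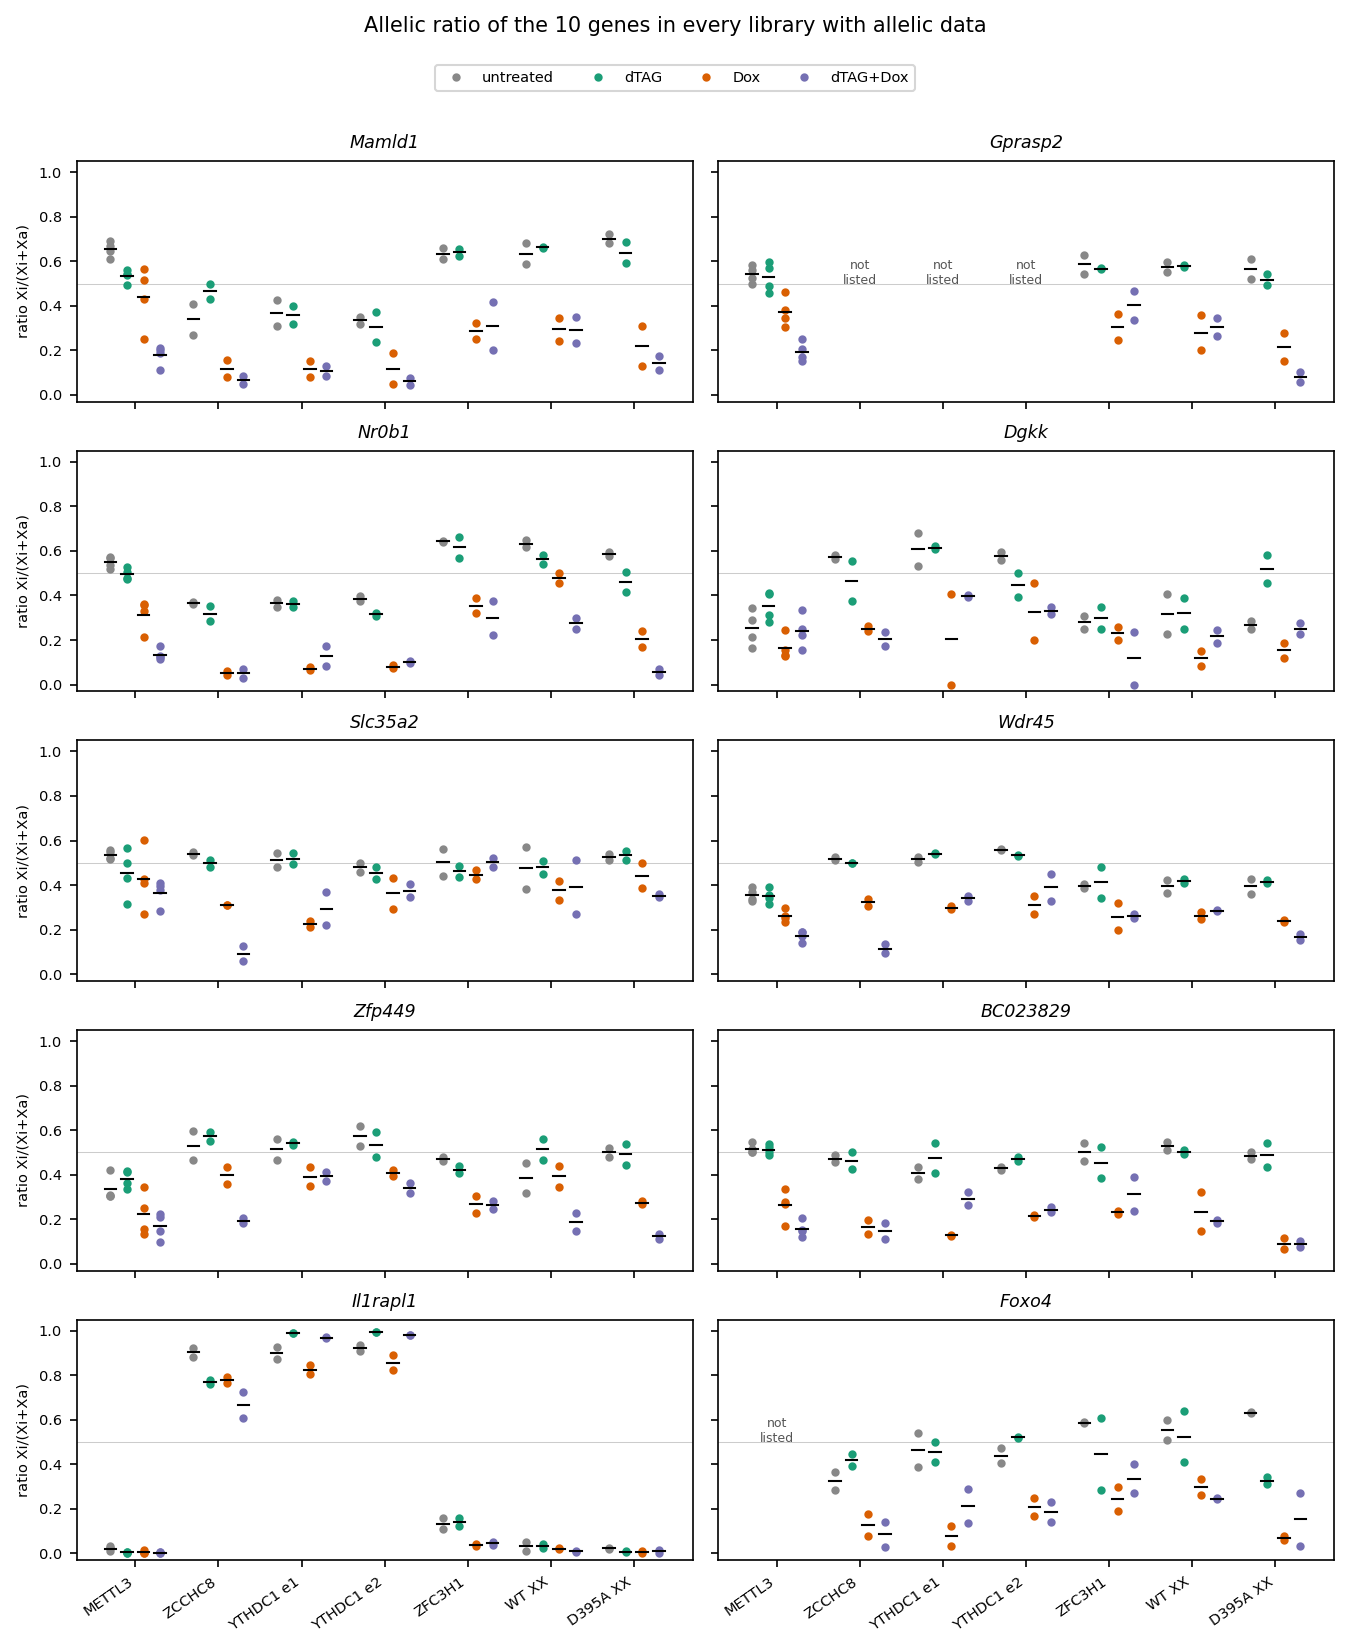
Allelic ratio Xi/(Xi+Xa) (y axis) of each member in every library, by line (x axis, e1 and e2 being the YTHDC1 experiments) and treatment (colours), 1 point per library with the group mean as a bar. Group means fall from untreated to Dox for each member listed in each line other than Zfp449 in WT XX, and the METTL3 dTAG+Dox libraries of Mamld1 lie at 0.111 to 0.213, below those with Dox alone.

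Dox alone was tested in the lines whose libraries did not choose the members. In ZFC3H1, 8 of the 10 members had a lower ratio after Dox (limma, adjusted p under 0.05), against 81.5% of all genes tested. In WT XX the count was 7 of 10 against 87.8%, and in D395A XX 7 of 10 against 92.7%. The members' shares were thus near or below the background of a chromosome on which most genes were silenced. Mamld1 changed by -0.346 (SE 0.0493, limma adjusted p = 0.00292) in ZFC3H1, by -0.339 (SE 0.0636, limma adjusted p = 5.51e-04) in WT XX and by -0.483 (SE 0.0636, limma adjusted p = 3.46e-05) in D395A XX, lower in both libraries of each line. Slc35a2, the galactose transporter, passed in none of the 3 lines, with changes of -0.0561 (SE 0.0476, limma adjusted p = 0.307), -0.102 (SE 0.0785, limma adjusted p = 0.238) and -0.0848 (SE 0.0785, limma adjusted p = 0.316).

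The addition of dTAG-13 to Dox was tested in the same 3 lines. In ZFC3H1, 0 of 10 members passed, as did 0% of all genes by limma, with 0 members past an unadjusted p of 0.05. In WT XX 1 member passed, against 0.489% of genes, and in D395A XX 1 member passed, against 18.6%. The member was Nr0b1 in both. Its ratio in WT XX went from 0.458 to 0.251 in experiment 1 and from 0.5 to 0.299 in experiment 2, a change of -0.204 (SE 0.0344, limma adjusted p = 0.0292). In D395A XX it went from 0.167 to 0.0411 in experiment 1 and from 0.241 to 0.0685 in experiment 2, a change of -0.149 (SE 0.0344, limma adjusted p = 0.0234). The dTAG+Dox libraries lay below the Dox libraries in both lines, but each call was lost when only the compared groups were fitted or when either experiment was left out. The counts also depended on the scale. On the logit scale 0 members passed in WT XX, where Nr0b1 had a limma adjusted p of 0.137, and 4 passed in D395A XX (Gprasp2, Nr0b1, Wdr45 and Zfp449). The shares of all genes passing on the logit scale are not given here. The difference between D395A and WT in this response was called for 0 members by limma and for 0.489% of genes. At an unadjusted p under 0.05 it held for 1 member, Wdr45, and for 60 of 409 genes. Among the other members chosen in the METTL3 line, Mamld1 went from 0.346 to 0.233 in experiment 1 and from 0.243 to 0.351 in experiment 2 in WT XX and from 0.308 to 0.113 in experiment 1 and from 0.13 to 0.174 in experiment 2 in D395A XX, down in 1 experiment and up in the other in each line. Gprasp2 went from 0.153 to 0.0571 in experiment 1 and from 0.279 to 0.104 in experiment 2 in D395A XX, lower in both, with a change of -0.135 (SE 0.0572, limma adjusted p = 0.11).

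**Figure D3:**
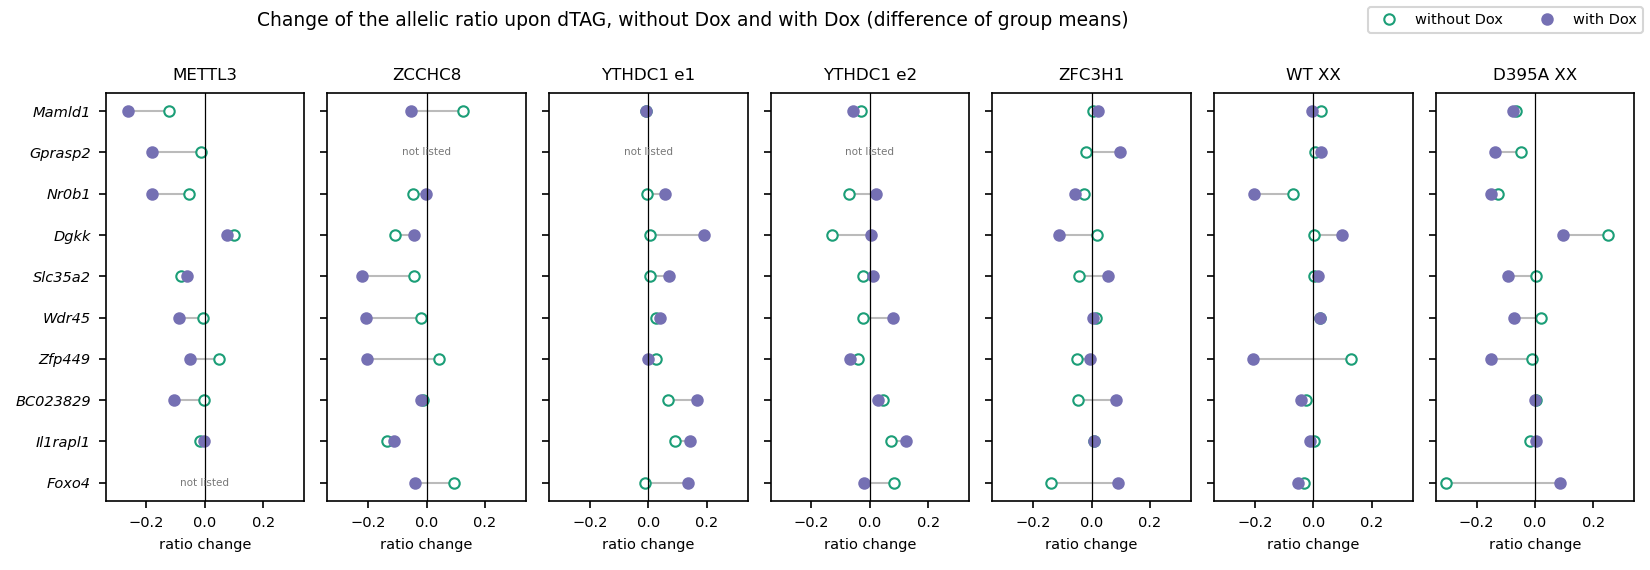
Change in allelic ratio upon dTAG-13 (x axis, difference of group means) for each member (rows) and line (panels, e1 and e2 being the YTHDC1 experiments), open circles without Dox and filled circles with Dox. With Dox, 8 of 9 listed members lie below 0 in METTL3, where 96.5% of all genes do. The counts are 9 of 9 in ZCCHC8 (88.2% of all genes) and 1 of 9 in YTHDC1 experiment 1 (6.87%). In these lines the changes with Dox chose the members. Without Dox, Foxo4 (-0.305) and Dgkk (0.25) in D395A XX lie farthest from 0.

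Without Dox, dTAG-13 left no member's ratio past the threshold in any of the 7 lines. The members called numbered 0 in METTL3 (0.253% of genes called), ZCCHC8 (1.53%), YTHDC1 experiment 1 (0%), YTHDC1 experiment 2 (0%), ZFC3H1 (0%), WT XX (0%) and D395A XX (0%), all by limma. At an unadjusted p under 0.05 the counts in that order were 3, 3, 2, 3, 0, 1 and 3. Allelic read depth is not in the files used here, so no counting interval could be set on a single ratio.

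Some members still had differences of the same sign in all clones or experiments of a line, and those below are examples. The share of all genes with the same sign throughout was not counted. Mamld1 in METTL3 went from 0.692 to 0.56 in clone G4, from 0.647 to 0.492 in clone H1, from 0.61 to 0.541 in clone C3 and from 0.667 to 0.538 in clone H5, lower in 4 of 4 clones with no overlap, a change of -0.121 (SE 0.0456, limma adjusted p = 0.265). Dgkk in METTL3 went from 0.212 to 0.31 in clone G4, from 0.165 to 0.279 in clone H1, from 0.345 to 0.409 in clone C3 and from 0.29 to 0.411 in clone H5, higher in 4 of 4 clones though the groups overlapped, a change of 0.0992 (SE 0.0241, limma adjusted p = 0.131). Dgkk in D395A XX went from 0.286 to 0.455 in experiment 1 and from 0.25 to 0.581 in experiment 2, a change of 0.25 (SE 0.0655, limma adjusted p = 0.151). Foxo4 in D395A XX went from 0.636 to 0.312 in experiment 1 and from 0.629 to 0.341 in experiment 2, a change of -0.305 (SE 0.0787, limma adjusted p = 0.151), the second largest of 409 genes. None of these passed after adjustment over all genes. The mean change of Mamld1 in METTL3 was -0.262 with Dox, the value that chose it, beside -0.121 without Dox. The medians over all genes of that line were -0.064 and -0.011.

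Slc35a2, Wdr45 and Zfp449 in ZCCHC8 differed less without Dox than with it, which their choice on the change with Dox favours. The median change over all genes of that line was also smaller, at -0.0253 without Dox and -0.0668 with it. Slc35a2 went from 0.548 to 0.514 in clone Z4F and from 0.535 to 0.481 in clone Z12H. Wdr45 went from 0.524 to 0.498 in clone Z4F and from 0.512 to 0.497 in clone Z12H. Zfp449 went from 0.595 to 0.593 in clone Z4F and from 0.466 to 0.551 in clone Z12H, nearly level in clone Z4F and higher in Z12H. Xist itself was higher with dTAG-13 in this line, both with and without Dox. It was at 7895 to 7934 CPM with dTAG+Dox and 2902 to 2986 CPM with Dox alone. Without Dox it was at 704 to 738 CPM with dTAG-13 alone and 84.3 to 108 CPM in untreated libraries. Such a rise was not particular to ZCCHC8. Without Dox, Xist was at 165 to 186 CPM against 79.3 to 95.2 CPM in YTHDC1 experiment 1, and 200.5 to 227.5 CPM against 66.2 to 113 CPM in ZFC3H1. With Dox it was at 4496 to 6601 CPM against 2039 to 4189 CPM in METTL3. The ranges with Dox overlapped in the YTHDC1 and ZFC3H1 lines. The part of Xist in the ratios was not tested.

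The level of the members, counted over both alleles, was tested on log2(CPM + 1). Il1rapl1, the synaptic adhesion gene, rose with dTAG-13 alone in 4 line experiments. In METTL3 its level went from 23 to 62.6 CPM in clone G4, from 46.6 to 109.7 CPM in clone H1, from 54.3 to 153 CPM in clone C3 and from 32.8 to 76 CPM in clone H5, higher in 4 of 4 clones with no overlap, a log2 change of 1.32 (SE 0.15, limma adjusted p = 2.13e-04). In YTHDC1 experiment 1 it went from 13.5 to 62.4 CPM in clone Y9F and from 13 to 44 CPM in clone Y12H, a log2 change of 1.91 (SE 0.12, limma adjusted p = 5.72e-08). In experiment 2 the same clones went from 16.8 to 77 CPM in clone Y9F and from 12.4 to 52.9 CPM in clone Y12H, a log2 change of 2.07 (SE 0.10, limma adjusted p = 2.30e-11). Clone Y9F had the higher dTAG-13 level of the pair in both experiments. In ZCCHC8 it went from 12.9 to 23.7 CPM in clone Z4F and from 16 to 23.1 CPM in clone Z12H, a smaller log2 change of 0.67 (SE 0.12, limma adjusted p = 5.33e-04). In each of these lines the dTAG-13 libraries all lay above the untreated ones. These calls held under all alternatives run, 10 in METTL3, 8 in ZCCHC8, 8 in YTHDC1 experiment 1 and 6 in experiment 2.

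The other lines differed in this gene. In D395A XX its level went from 63.9 to 126 CPM in experiment 1 and from 56 to 159.9 CPM in experiment 2, higher in both experiments without passing after adjustment, a log2 change of 1.23 (SE 0.36, limma adjusted p = 0.0654). It passed there when the experiment was kept as a block. In WT XX it went from 29.9 to 34.1 CPM in experiment 1 and from 44.7 to 51.3 CPM in experiment 2, and in ZFC3H1 from 11.8 to 15.8 CPM in clone 8H and from 11.5 to 11.8 CPM in clone 11A, with log2 changes of 0.19 (SE 0.36, limma adjusted p = 1) and 0.21 (SE 0.16, limma adjusted p = 0.573). Untreated levels also differed, at 1.44 to 4.16 CPM in the XiO lines, which lack the 129S X, against 11.5 to 63.9 CPM elsewhere.

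Multiplying the level by the allelic share split Il1rapl1 by strain. The 129S part in METTL3 went from 22.5 to 62.5 CPM in clone G4, from 46.1 to 109 CPM in clone H1, from 52.5 to 152 CPM in clone C3 and from 32.1 to 75.5 CPM in clone H5, while the Cast part went from 0.523 to 0.113 CPM in clone G4, from 0.479 to 0.334 CPM in clone H1, from 1.73 to 1.19 CPM in clone C3 and from 0.766 to 0.447 CPM in clone H5, lower in 4 of 4 clones. In YTHDC1 experiment 1 the 129S part went from 12.5 to 61.9 CPM in clone Y9F and from 11.4 to 43.6 CPM in clone Y12H and the Cast part from 0.996 to 0.509 CPM in clone Y9F and from 1.67 to 0.386 CPM in clone Y12H. The rise thus lay on the 129S allele in both lines, which was Xa in METTL3 and the X with inducible Xist in YTHDC1. The Cast parts there were only 0.113 to 1.73 CPM, where 1 read was worth 0.0291 to 0.117 CPM over all libraries. They rest on an unknown number of informative reads, so a fall on the Cast allele is not shown. In ZCCHC8 both parts were higher, the 129S part going from 11.9 to 18 CPM in clone Z4F and from 14.1 to 17.9 CPM in clone Z12H and the Cast part from 1.01 to 5.67 CPM in clone Z4F and from 1.85 to 5.12 CPM in clone Z12H.

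**Figure D4:**
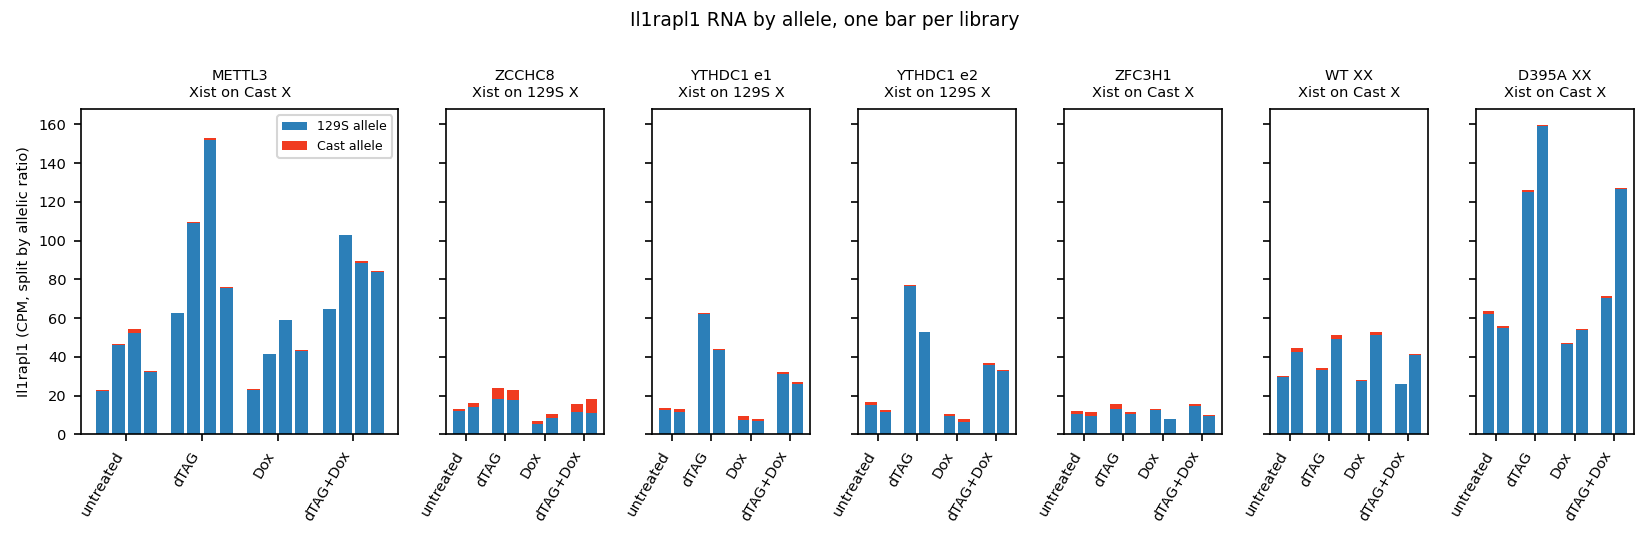
Level of Il1rapl1 in CPM (y axis) by treatment (x axis) and line (panels, e1 and e2 being the YTHDC1 experiments), 1 bar per library split into its 129S and Cast parts by the allelic ratio. The 129S part is higher with dTAG-13 in the METTL3 and YTHDC1 lines, and in ZCCHC8 the Cast part goes from 1.01 to 5.67 CPM in clone Z4F and from 1.85 to 5.12 CPM in Z12H.

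Of the 10 members, all of which were measured in every expression table, 2 changed in level with dTAG-13 alone in METTL3 (23.3% of all genes called), 2 in ZCCHC8 (36.1%), 2 in YTHDC1 experiment 1 (19.0%) and 2 in experiment 2 (17.8%). Beside Il1rapl1, the second member was a different gene by line. Dgkk, the diacylglycerol kinase, in METTL3 went from 5.68 to 10.7 CPM in clone G4, from 11.9 to 18 CPM in clone H1, from 5.57 to 7.68 CPM in clone C3 and from 3.89 to 8.25 CPM in clone H5, higher in 4 of 4 clones though the groups overlapped, a log2 change of 0.67 (SE 0.14, limma adjusted p = 0.00531). Its call was lost without clone G4, without clone H5 and without the clone block, each of which left Il1rapl1 alone. Gprasp2, the receptor-sorting gene, in ZCCHC8 went from 12.3 to 5.73 CPM in clone Z4F and from 12.4 to 7.23 CPM in clone Z12H, a log2 change of -0.84 (SE 0.13, limma adjusted p = 1.12e-04). Wdr45, the autophagy gene, in YTHDC1 experiment 1 went from 145 to 102 CPM in clone Y9F and from 131 to 99 CPM in clone Y12H, a log2 change of -0.45 (SE 0.08, limma adjusted p = 9.91e-04). In experiment 2 it went from 58.9 to 41 CPM in clone Y9F and from 46.1 to 36.6 CPM in clone Y12H, a log2 change of -0.42 (SE 0.09, limma adjusted p = 0.00193). Both clones were lower for Gprasp2 and Wdr45, and the groups did not overlap. The call of Wdr45 in experiment 1 was lost without clone Y9F, and in both experiments without the clone block.

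The median over all genes in METTL3 moved by 0.21 on the log2 scale with dTAG-13 alone. When each library was scaled by its median ratio, Il1rapl1 remained higher at 1.09 and Dgkk at 0.46, Gprasp2 (-0.46) and Nr0b1 (-0.89) also passed, and the uncalled changes of Wdr45 and BC023829 turned from above to below 0. Nr0b1, the DAX1 gene, went from 68.6 to 23.6 CPM in clone G4, from 81.6 to 41.8 CPM in clone H1, from 31.6 to 31.3 CPM in clone C3 and from 52.2 to 46.8 CPM in clone H5, lower in 4 of 4 clones but by widely different amounts.

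In the other 5 lines, 0 members passed for level with dTAG-13 alone by limma, against 2.15% of genes in ZFC3H1, 0% in WT XX and 6.01% in D395A XX. The shares were 0% in WT XiO and 0.402% in D395A XiO. At an unadjusted p under 0.05 the counts were 0, 0, 3, 0 and 1, and edgeR on the recovered reads called 0 in each. Of all genes, 2193 of 13544, 29 of 13364, 2842 of 13364, 18 of 13448 and 1570 of 13448 passed that unadjusted cut, in the same order. The transgene-line fits had no block, so differences between experiments stayed in the spread. Their counts of 0 do not show that no member changed. With dTAG+Dox against Dox, 0 members passed in any of these 5 lines by limma. Of all genes, 3.15% passed in ZFC3H1, 0% in WT XX and 3.19% in D395A XX. In the XiO lines the shares were 0% for WT and 0.0521% for D395A. The members at an unadjusted p under 0.05 numbered 1, 0, 1, 1 and 1 in that order. All genes at that cut numbered 2450 of 13544, 39 of 13364, 2294 of 13364, 14 of 13448 and 1404 of 13448. With the experiment as a replicate block, 6 members passed in D395A XX and 3 in D395A XiO with dTAG-13 alone, and 3 and 2 with dTAG+Dox. The shares of all genes passing with the block are not given here, and those above are from fits without it.

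**Figure D5:**
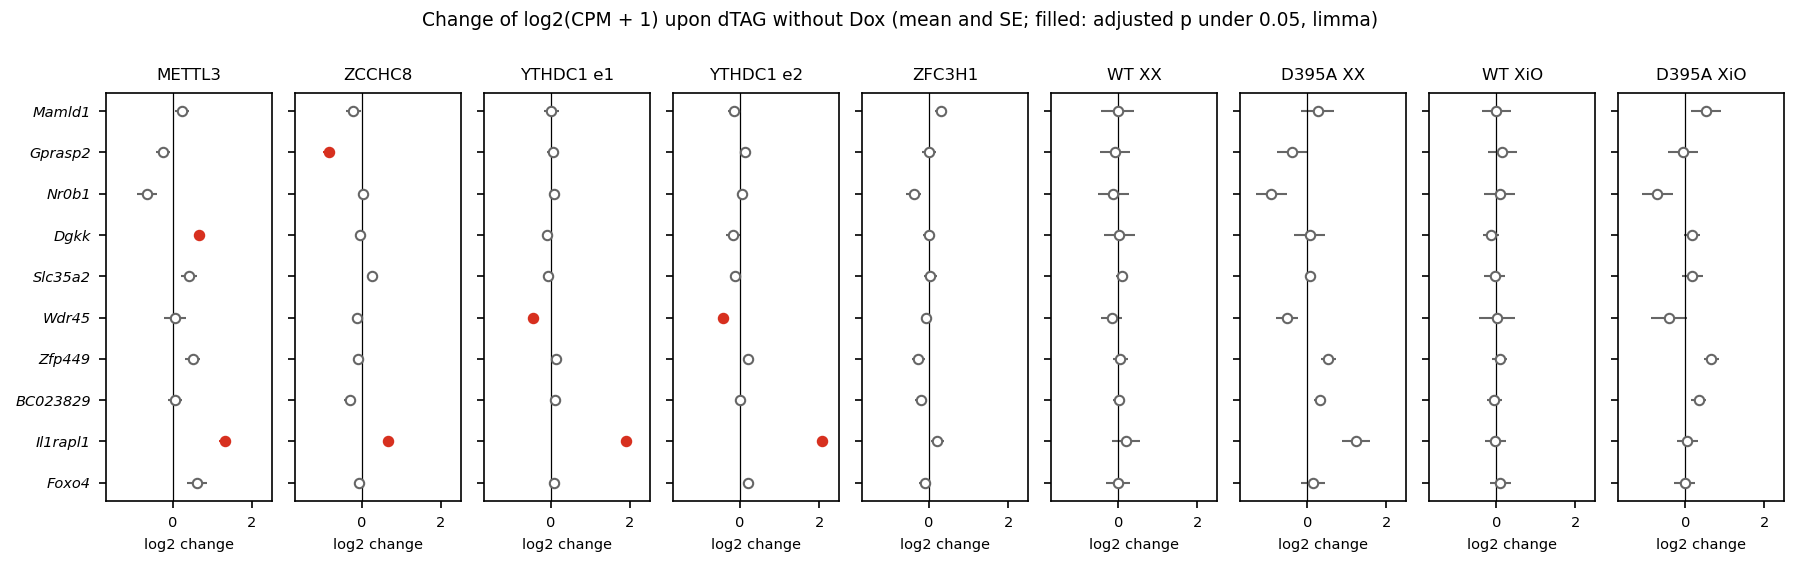
Change in level upon dTAG-13 without Dox (x axis, log2(CPM + 1), fitted mean with its SE) for each member (rows) and line (panels, e1 and e2 being the YTHDC1 experiments), filled where the limma adjusted p was under 0.05. Il1rapl1 is filled in METTL3, ZCCHC8 and both YTHDC1 experiments, at 1.32, 0.67, 1.91 and 2.07.

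The XiO lines have a single X, so silencing by Xist is read from the level. With Dox alone, 4 members fell in WT XiO, against 1.17% of all genes and 33.5% of X-linked genes. BC023829 went from 6.89 to 1.9 CPM in experiment 1 and from 7.83 to 1.77 CPM in experiment 2, a log2 change of -1.56 (SE 0.19, limma adjusted p = 0.00183). Il1rapl1 went from 4.16 to 0.632 CPM in experiment 1 and from 3.51 to 1 CPM in experiment 2, a log2 change of -1.42 (SE 0.26, limma adjusted p = 0.0272). Both genes were at lower levels with Dox than in either untreated library. Dgkk went from 6.03 to 2.21 CPM in experiment 1 and from 6.02 to 1.83 CPM in experiment 2, a log2 change of -1.22 (SE 0.21, limma adjusted p = 0.0152). Zfp449 went from 3.16 to 1.03 CPM in experiment 1 and from 3.08 to 0.767 CPM in experiment 2, a log2 change of -1.12 (SE 0.19, limma adjusted p = 0.0153). All 4 lay lower in both experiments with no overlap, but none passed with only the compared groups fitted or with either experiment left out. The share of X-linked genes without overlap is not given here, so the lack of overlap does not set these members apart. Il1rapl1 also did not pass by edgeR on the recovered reads (adjusted p = 0.0519). In D395A XiO 0 members passed by limma, against 0.580% of all genes and 15.8% of X-linked genes, and 0 passed by edgeR. At an unadjusted p under 0.05 there were 4 members, beside 538 of all 13448 genes. The X-linked share at that cut is not given here. These fits had no block for the experiment. With the experiment as a replicate block, 8 members passed in WT XiO and 5 in D395A XiO. The shares of all genes and of X-linked genes with the block are not given here, and those above are from fits without it. WT XiO is the line whose marker sums stood apart, and their part in these levels was not tested.

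Members picked for a large change in 1 line tend by that choice to have smaller changes in the others, so the following values are descriptions. Mamld1 with Dox differed upon dTAG-13 by a mean of -0.0526 ± 0.0792 (SD, n = 2) in ZCCHC8 and 0.0204 ± 0.0995 (SD, n = 2) in ZFC3H1. Wdr45, lowest in ZCCHC8, differed by -0.089 ± 0.0308 (SD, n = 4) in METTL3, 0.0406 ± 0.00583 (SD, n = 2) in YTHDC1 experiment 1 and 0.00327 ± 0.0687 (SD, n = 2) in ZFC3H1. Wdr45 was lower in all 4 METTL3 clones and higher in both YTHDC1 clones. Slc35a2 differed by -0.0609 ± 0.112 (SD, n = 4) in METTL3, where the SD exceeded the mean. Zfp449 differed by -0.203 ± 0.0355 (SD, n = 2) in ZCCHC8 and by -0.205 ± 0.126 (SD, n = 2) in WT XX, and Nr0b1 by -0.18 in METTL3 and -0.204 in WT XX, so these 2 members were not smaller there. Over the members listed in ZFC3H1 the median change with Dox was 0.014, beside 0.00694 over all genes tested. In WT XX the medians were -0.00745 and -0.0159, and in D395A XX -0.0729 and -0.0554.

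With Dox present, the level of Il1rapl1 is given as values, since its ratio in this contrast helped choose it. In METTL3 it went from 23.4 to 64.7 CPM in clone G4, from 41.3 to 103 CPM in clone H1, from 59.3 to 89.3 CPM in clone C3 and from 43.4 to 84.1 CPM in clone H5. In YTHDC1 experiment 2 it went from 10.4 to 36.8 CPM in clone Y9F and from 7.76 to 33.4 CPM in clone Y12H. All 6 clones were higher with dTAG-13. The ratio of Il1rapl1 without Dox went from 0.926 to 0.992 in clone Y9F and from 0.872 to 0.991 in clone Y12H in YTHDC1 experiment 1 and from 0.908 to 0.996 in clone Y9F and from 0.937 to 0.996 in clone Y12H in experiment 2, and from 0.922 to 0.761 in clone Z4F and from 0.884 to 0.778 in clone Z12H in ZCCHC8. The ratio was thus nearer to 1 in the YTHDC1 clones and farther from it in the ZCCHC8 clones. Neither change passed on the ratio scale, but on the logit scale Il1rapl1 passed in YTHDC1 experiment 1.

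Over all ratio libraries, the ratios of 9 members were set beside those of non-member genes by Pearson correlation. Only genes other than Xist with a ratio in all of the member's libraries were compared. The correlations are descriptions whose points share lines, treatments and the direction of Xist. The most alike gene was Stard8 for both Mamld1 (0.930) and Nr0b1 (0.934), Mtm1 for BC023829 (0.952), Ube2a for Il1rapl1 (0.987), Gripap1 for Slc35a2 (0.779) and Firre for Dgkk (0.797), over 64 libraries each. Uba1 was the most alike for both Wdr45 (0.946) and Zfp449 (0.879). Over fewer libraries, Cask was the most alike for Foxo4 (0.876, 48 libraries).

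Of 18 genes for factors of Xist-mediated silencing, listed with earlier results known, dTAG-13 alone changed a few in level, at shares to be read against those of all genes. In METTL3, where 23.3% of all genes passed, 4 rose (Ring1, Hdac3, Rbm15, Pcgf3) and 2 fell (Wtap, Ezh2), and with median-ratio scaling 1 rose and 3 fell. The list's median change was 0.15 beside 0.21 over all genes. In ZCCHC8, where 36.1% of all genes passed, the list's share was close to that background. There 1 rose (Hnrnpu), and those that fell included Lbr, Suz12, Smchd1, Ciz1 and Pcgf3, with a list median of -0.09 beside -0.01 over all genes. Spen, whose protein binds the A-repeat of Xist, rose in both YTHDC1 experiments, and Ciz1 fell in the second, against 19.0% and 17.8% of all genes passing. In D395A XX, where 6.01% of all genes passed, 2 rose (Pcgf3, Pcgf5) and 1 fell (Wtap), whereas with median-ratio scaling none rose. No listed gene passed in ZFC3H1, in either WT line or in D395A XiO.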

How the data were processed

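ChrRNA-seq libraries of 80 mouse embryonic stem cell samples in 36 groups were used. The authors removed ribosomal reads with Bowtie2, aligned to N-masked mm10 with STAR, split alleles with SNPsplit and counted reads over transcripts, introns included, with featureCounts. The deposited CPM values were made with edgeR from raw counts, and 100% came out as whole reads (tolerance 0.02 reads), at 8.58 to 34.4 M reads a library. The deposited allelic ratio is a fraction, Xi/(Xi+Xa), kept by the authors for genes with at least 10 reads over informative positions. In total 24 columns matched no sample and were not used.

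Ratios, and log2(CPM + 1) where a gene averaged 1 CPM or more, were fitted with limma 3.58.1 (lmFit, eBayes with trend) in R 4.3.3, two-sided, with Benjamini-Hochberg adjustment over all genes of the fit and a threshold of 0.05. The degron-line fits kept each clone as a block, and the transgene-line fits had no block. edgeR 4.0.16 was run on the recovered reads. In ZFC3H1, genes starting beyond 138 Mb were left out of the ratio fit, since clone 11A is uninformative there. Python 3.11.15, pandas 2.3.3 and matplotlib 3.10.9 were used. The contrast of dTAG-13 alone with untreated was tested on simulated data. Levels were simulated for METTL3, D395A XX, ZCCHC8 and ZFC3H1, and ratios for METTL3, D395A XX and ZFC3H1. Other fits and contrasts were not simulated. The simulated libraries had no clone or experiment effects, so they do not show how fits without a block treat such effects. The outcome of the simulation is not given here. p-values measure only the spread between these samples. Alternatives were logit scale, pseudocount, scaling, filter, block, groups fitted and leaving out replicates.

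The named genes are the members and Xist, non-members ranking beside them, the gene most alike to each member, and called genes of the silencing list. Of these, 2 genes are not reported here. The members and lists were chosen with earlier results of these data known. Same-numbered samples are the same clone or, in transgene lines, the same experiment, and mean residual correlations between them were 0.294 to 0.885. Targeted genes were not used to check labels, since a degron acts on protein.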

Additional observations from a re-analysis of the deposited data

Results flagged for a closer look

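Among 76 groups of 4 libraries, 2 held a library far from the other 3 by Dixon's criterion, which chance passes in about 1 group in 20. The untreated ratio of Zfp449 in METTL3 clone C3 was 0.42, against 0.304 to 0.311 in the other clones. The level of Foxo4 in METTL3 clone H5 with dTAG+Dox was 3.61 CPM, against 4.65 to 4.83 CPM in the other clones.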

How the results depend on the processing

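Of 204 recomputed counts of members called, 178 stayed within 1.5 times the value reported and 26 moved. Of 224 recomputed calls of single members, 191 stayed and 33 no longer passed, and no direction turned. For ratios without Dox, the logit scale gave 1 (Il1rapl1) in YTHDC1 experiment 1. For ratios with dTAG+Dox against Dox, the count in WT XX was 0 on the logit scale, 0 with only the compared groups and 0 to 0 leaving out replicates, and in D395A XX it was 4, 0 and 0 to 0. For levels with dTAG-13 alone in METTL3, median-ratio scaling gave 4, no replicate block gave 1, and leaving out a replicate gave 1 to 3, with 1 without clone G4 or without H5. In YTHDC1 experiment 1 no replicate block gave 1 and leaving out a clone gave 1 to 2, with 1 without Y9F, and no replicate block gave 1 in experiment 2. In D395A XX only the compared groups gave 2 and the replicate block gave 6, and in D395A XiO the block gave 3. With dTAG+Dox the block gave 3 in D395A XX and 2 in D395A XiO. For Dox alone in WT XiO, only the compared groups gave 0, the replicate block 8 and leaving out replicates 0 to 0, and in D395A XiO the block gave 5. Of the silencing factors in D395A XX, median-ratio scaling called 1. The cause was not tested, and the shares of all genes called are not given beside these alternative counts. Leaving out a clone left no residual degrees of freedom in ZFC3H1 and YTHDC1 experiment 2 and was not run there. In the other lines with 2 replicates, the lone remaining sample was assumed to vary like the others. Allelic depth is unknown, and 1 read was worth 0.0291 to 0.117 CPM, which limits members at a few CPM.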
